A study of Rattus norvegicus with 6 samples.

Results

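The mature miRNAs described here are the guide strands of 3 families that restrain or shape inflammatory signalling: miR-146a-5p and miR-146b-5p, miR-181a-5p to miR-181d-5p, and miR-155-5p. They were taken by name from the deposited table, which lists all 7 of them among 763 rat miRNAs. The libraries were made from exosomes, small vesicles shed by cells, that had been collected with an isolation reagent from medium of wild-type rat mesenchymal stem cells labelled RBMSC. There were 3 libraries from cells pretreated with 200 µM nicorandil for 24 h and 3 from cells with no pretreatment. Nicorandil, used against angina, is a nitrate and an opener of potassium channels that close when ATP is high. The comparison asked how the pretreatment alters the miRNAs that the exosomes carry. Nothing in the labels tells separate cultures from repeat preparations, so p-values measure only how these samples spread, and that spread may be technical.

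A miRNA pairs with messenger RNAs mainly through its seed, bases 2 to 8 from the 5′ end, and lowers their stability and translation. In mouse and human cells NF-κB, the transcription factor downstream of Toll-like receptors, induces miR-146a, which in turn represses the adaptors TRAF6 and IRAK1. The same pathway induces miR-155, which represses the cytokine-signalling inhibitor SOCS1 and the phosphatase SHIP1 in macrophages. Members of the miR-181 family tune the strength of T-cell receptor signalling, and in endothelial cells miR-181b limits the nuclear import of NF-κB. Exosomes of mesenchymal stem cells are studied as carriers of such miRNAs to macrophages.

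The mature sequences show why members of a family are read here beside each other. They are given 5′ to 3′ from RefSeq on rat build GRCr8, with the seed in capitals, and all 7 names were matched.
miR-146a-5p: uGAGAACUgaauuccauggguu
miR-146b-5p: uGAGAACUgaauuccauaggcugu
miR-181a-5p: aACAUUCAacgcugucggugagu
miR-181b-5p: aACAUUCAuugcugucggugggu
miR-181c-5p: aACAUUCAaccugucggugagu
miR-181d-5p: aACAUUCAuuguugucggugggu
miR-155-5p: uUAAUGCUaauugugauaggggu

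The members hold 3 seeds: GAGAACU in both miR-146 paralogues, ACAUUCA in the 4 miR-181 paralogues and UAAUGCU in miR-155-5p. Counted from the 5′ end, miR-146b-5p differs from miR-146a-5p by G18A and U21C over the 22 positions they share, so their first 17 bases are identical. miR-181b-5p differs from miR-181a-5p by A9U, C10U and A21G, and miR-181d-5p from miR-181b-5p by C12U alone. miR-181c-5p is miR-181a-5p without 1 base. How the submitters assigned reads that fit several miRNAs is not stated, so reads of such close paralogues may have been split between them, and values of single paralogues carry that uncertainty.

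On GRCr8, miR-146a-5p lies at chr10:28350053-28350074 on the minus strand, within the span of an uncharacterised long non-coding RNA gene. miR-146b-5p lies on another chromosome, at chr1:255144874-255144897 on the plus strand, within the span of the protein-coding gene C1h10orf95. miR-181a-5p is encoded by Mir181a2 at chr3:43025601-43025623, within the span of Nr6a1, and again by Mir181a-1 at chr13:52037081-52037103. The miR-181b-5p copy of Mir181b1, at chr13:52037263-52037285, starts 182 bases from that of Mir181a-1. Mir181c and Mir181d form another pair, at chr19:40888314-40888335 and chr19:40888484-40888506, whose 5′ arms start 170 bases apart and are spanned by no other annotated gene. These 5 loci of the family are on the plus strand. miR-155-5p lies at chr11:37261117-37261139 on the plus strand, within its host gene Mir155hg.

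The nicorandil libraries held 8426 to 16628 miRNA reads and the untreated ones 2212 to 2338, so the pretreated group was 6.11-fold deeper. In chi-square tests of the reads, no difference beyond sampling noise was found between untreated replicates 1 and 2 (p = 0.74) or 1 and 3 (p = 0.15), while replicates 2 and 3 differed (p = 0.015), and the 3 were kept as 3 samples. The nicorandil libraries differed from each other by far more than sampling noise. Their chi-square values were 235 on 98, 497 on 96 and 503 on 93 degrees of freedom. A chi-square test finds smaller differences in deeper libraries, so it does not show which group's libraries were more alike. Values named normalized reads are the authors' deposited values, scaled to 1 common library size. Reads are the whole reads recovered from those values, and shares are percentages of all miRNA reads of a library. Intervals are 95% Wilson intervals of counting error within a library only. PCR copies of 1 molecule are counted as separate reads, so these intervals may be too narrow.

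Reads of the exosomes were assigned to 5 of the 7 members and none to the other 2. miR-146b-5p and miR-181a-5p were the main ones, miR-146a-5p was next, miR-181b-5p was sparse and miR-155-5p was close to the limit of detection. miR-181c-5p and miR-181d-5p had 0 reads among 48152, which allows a share of up to 0.00623%. Together the 7 members made up 1.12%, 0.986% and 1.32% of the nicorandil libraries, against 0.989%, 0.769% and 1.11% of the untreated ones, and these ranges overlapped. For scale, miR-143-3p, the most abundant miRNA, took 24.1% ± 2.74 of nicorandil and 22.5% ± 0.520 of untreated libraries (SD, n = 3 each).

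Averaged with equal weight on the groups, miR-181a-5p ranked 40 and miR-146b-5p 41 of the 250 miRNAs with a read. miR-146a-5p ranked 54, miR-181b-5p 80 and miR-155-5p 133. The first 2 lay within each other's spread, and their order changed between libraries: miR-146b-5p had the larger share in nicorandil replicates 1 and 3 and in untreated replicate 3, and miR-181a-5p in the other 3 libraries. In every nicorandil library miR-146a-5p lay above miR-181b-5p and miR-181b-5p above miR-155-5p. In the shallower untreated libraries that lower order did not hold, since miR-181b-5p had 0 reads in replicates 2 and 3. These are shares of reads of RNAs of near-equal length, 22 to 24 bases, and adapter ligation can favour some sequences over others.

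**Figure D1:**
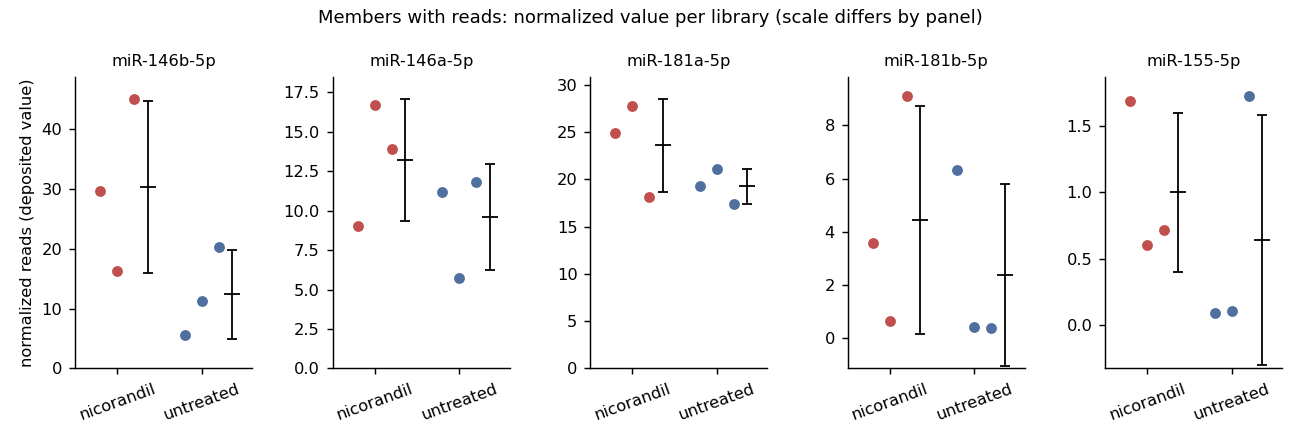
Deposited normalized reads of the 5 members with reads, 1 dot per library, with nicorandil (red) left of untreated (blue) and the group mean ± SD beside each group (n = 3 each); the vertical scale differs between panels. The groups overlap in every panel; for miR-146b-5p the nicorandil dots run from 16.3 to 45.0 and the untreated dots from 5.58 to 20.2.

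Of the 7 members, 4 had enough signal to be tested, and 1 of these, miR-146b-5p, was higher in the nicorandil group, while none was lower. Over all 121 miRNAs tested with limma, 14.0% were called higher and 7.44% lower at a Benjamini-Hochberg adjusted p under 0.05. Read against that background, 1 call among 4 is not a result about the members as a group. The median log2 fold change was 0.62 over the 4 tested members and 0.23 over all 121. The values of the groups overlapped for all 4, where 28.1% of the miRNAs tested were separated.

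miR-146b-5p, which shares the seed of miR-146a and so its predicted targets, had 29.6, 16.3 and 45.0 normalized reads in the nicorandil libraries, against 5.58, 11.3 and 20.2 in the untreated ones. Nicorandil replicate 2 lay below untreated replicate 3, so the groups overlapped. The group means were 30.3 ± 14.3 in nicorandil and 12.4 ± 7.34 in untreated exosomes (SD, n = 3 each). The log2 fold change was 1.28 on the log2(value + 1) scale (SE 0.42, limma adjusted p = 0.0343). This call was lost in 16 of 20 other settings, with adjusted p-values over those settings from 0.00187 to 0.587, while its sign was positive in all 20. Without nicorandil replicate 3 the log2 fold change was 0.94 (adjusted p = 0.36), without nicorandil replicate 1 it was 1.24 (0.246), without nicorandil replicate 2 1.65 (0.0763), without untreated replicate 1 0.84 (0.0771), and without untreated replicate 2 1.30 (0.077).

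The untreated level of miR-146b-5p rests on few reads. It had 79, 47 and 57 reads in the nicorandil libraries, against 2, 5 and 11 in the untreated ones. As shares these were 0.475%, 0.288% and 0.676% in nicorandil and 0.0899%, 0.226% and 0.470% in untreated libraries. The interval of the lowest nicorandil share, 0.217% to 0.383%, lay within that of untreated replicate 2, 0.0966% to 0.528%. Over pooled reads the share was 1.66 times as large in nicorandil, 183 reads, as in untreated exosomes, 18 reads, with an exact conditional 95% interval of 1.02 to 2.87. That interval leaves out the spread between libraries. With library totals as the scale the log2 fold change was 1.01 and not called (limma adjusted p = 0.298). The deposited values are adjusted within each group. Recovered reads on the same scale but without that adjustment gave 1.43, not called (limma adjusted p = 0.0896). In the authors' deposited table its log2 fold change is 1.28 with an unadjusted p of 0.022, which became 0.587 when adjusted over its 763 rows.

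miR-146a-5p, the NF-κB-induced paralogue, was present in every library at a low level. It had 9.03, 16.7 and 13.9 normalized reads in the nicorandil libraries, against 11.2, 5.72 and 11.8 in the untreated ones. The nicorandil range covered untreated replicates 1 and 3, and untreated replicate 2, with 2 reads, was the lowest library. Its log2 fold change was 0.45 (SE 0.39, limma adjusted p = 0.587) and it was called in none of the 20 other settings. With library totals it was 0.12. Its pooled share was nearly equal, 0.205% in nicorandil from 85 reads and 0.207% in untreated from 14, a ratio of 0.994 with an exact conditional interval of 0.561 to 1.89. A change within that interval was not detectable at this depth. The interval leaves out the spread between libraries, so a change somewhat outside it could be missed as well.

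**Figure D2:**
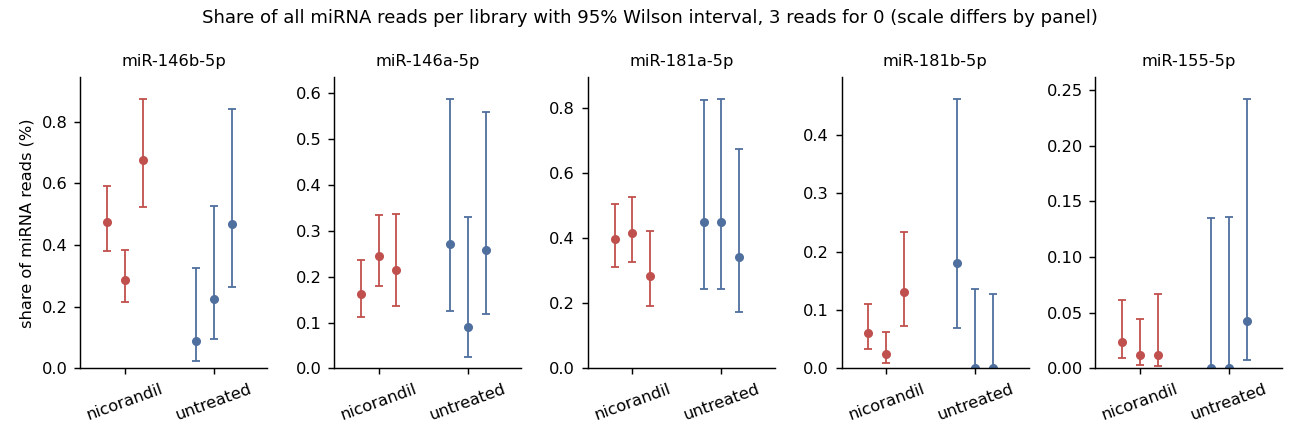
Share of all miRNA reads for the 5 members with reads, 1 dot per library with its 95% Wilson interval (for a dot with no read, the share that 3 reads would give), nicorandil (red) left of untreated (blue); the vertical scale differs between panels. The untreated intervals are wider at their 2212 to 2338 reads, and for miR-155-5p the dots with no read have upper limits of 0.135% and 0.136%.

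Within the miR-146 family, miR-146b-5p supplied most reads of the nicorandil libraries: 74.5%, 54.0% and 76.0% of 106, 87 and 75 family reads. In the untreated libraries it supplied 25.0%, 71.4% and 64.7% of 8, 7 and 17 reads. The means were 68.2% ± 12.3 in nicorandil and 53.7% ± 25.1 in untreated exosomes (SD, n = 3 each), and the ranges overlapped. Untreated replicate 1, where 2 of 8 reads were miR-146b-5p, had an interval of 7.15% to 59.1%. Summed over the paralogues, which share a seed, the family took 0.687% ± 0.184 of nicorandil and 0.468% ± 0.226 of untreated reads (SD, n = 3 each). That sum does not depend on how reads were split between the paralogues.

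**Figure D3:**
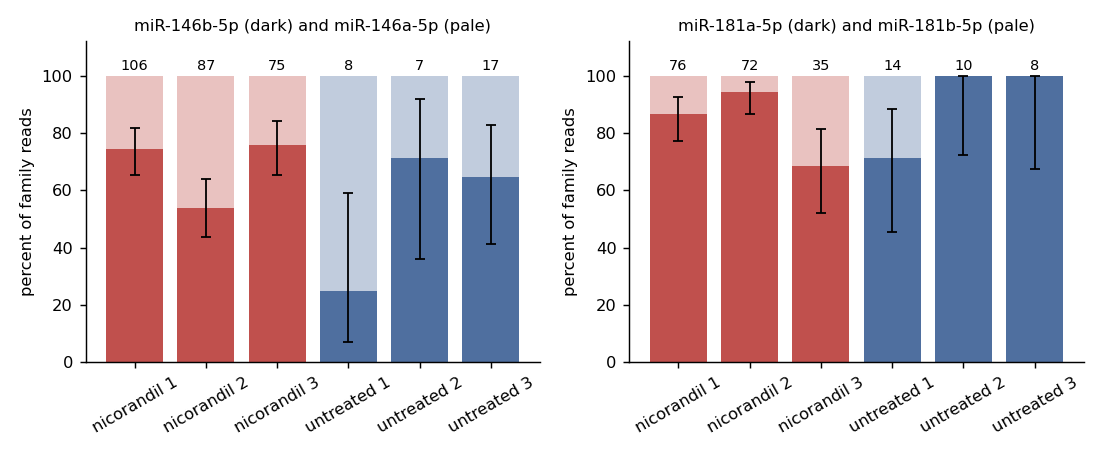
Percent of the family's reads that came from the paralogue in dark colour, with its 95% Wilson interval, for each nicorandil (red, left) and untreated (blue) library; the number above a bar is the family's reads in that library. miR-146b-5p and miR-181a-5p form the larger part in every library except untreated replicate 1, where miR-146b-5p is at 25.0%.

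miR-181a-5p, which tunes T-cell receptor signalling, was the most even member across libraries. It had 24.9, 27.7 and 18.1 normalized reads in the nicorandil libraries, against 19.3, 21.1 and 17.4 in the untreated ones. Nicorandil replicates 1 and 2 lay above all untreated libraries and replicate 3 lay within the untreated range. The log2 fold change was 0.26 (SE 0.27, limma adjusted p = 0.678), near the median of 0.23 over all miRNAs tested. With library totals it was -0.18, and it was called in none of the 20 other settings. As a share of reads it took 0.366% ± 0.0711 of nicorandil and 0.415% ± 0.0628 of untreated libraries (SD, n = 3 each), from 158 and 28 reads, a pooled ratio of 0.924 with an exact conditional interval of 0.615 to 1.43. So the sign of its difference depended on the scale, and the difference was within the counting error.

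miR-181b-5p was sparse and uneven. The RefSeq hairpin of Mir181b2, on chromosome 3 beside Mir181a2, holds the same mature sequence as Mir181b1 on chromosome 13, so its reads cannot be assigned to either locus. It had 3.58, 0.654 and 9.08 normalized reads in the nicorandil libraries, against 6.32, 0.421 and 0.405 in the untreated ones. These rest on 10, 4 and 11 nicorandil reads and on 4, 0 and 0 untreated reads, and a library with no read carries a small positive deposited value because the value is set from its whole group. The log2 fold change of 0.80 had an SE of 0.81 (limma adjusted p = 0.669), and it was 0.17 without nicorandil replicate 3 and 1.59 without untreated replicate 1. Pooled, the share was 0.0604% in nicorandil and 0.0590% in untreated exosomes, a ratio of 1.02 with an exact conditional interval of 0.353 to 4.05. In untreated replicates 2 and 3 a count of 0, taken to allow 3 reads, leaves room for shares of up to 0.136% and 0.128%, above the 0.0601% and 0.0245% of nicorandil replicates 1 and 2 and close to the 0.131% of nicorandil replicate 3.

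Of the miR-181 reads, miR-181a-5p supplied 86.8%, 94.4% and 68.6% in nicorandil libraries and 71.4%, 100% and 100% in untreated ones, and miR-181b-5p the rest. Nicorandil replicate 3 had the largest part of miR-181b-5p among the nicorandil libraries, 11 of 35 reads. The family sum overlapped between the groups, at 0.457%, 0.441% and 0.415% of the nicorandil libraries, against 0.629%, 0.452% and 0.342% of the untreated ones. No read was assigned to the products of the paired genes Mir181c and Mir181d. How reads of such close paralogues were assigned is not stated, so the limits below hold for assigned reads. In the nicorandil group, 0 of 41378 reads allows a share of up to 0.00725% for each of them, and in the untreated group 0 of 6774 reads allows up to 0.0443%.

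miR-155-5p, the pro-inflammatory member, was at the edge of detection in both groups. It had 4, 2 and 1 reads in the nicorandil libraries, against 0, 0 and 1 in the untreated ones. Its deposited values were 1.69, 0.601 and 0.716 normalized reads in nicorandil and 0.0948, 0.109 and 1.73 in untreated libraries. The highest library was thus an untreated one, from 1 read in a shallow library. Its mean of 0.823 normalized reads was below the minimum of 1 set for testing. With no filter, among 250 miRNAs, its log2 fold change was 0.39 (SE 0.76, limma adjusted p = 0.768). At the pooled nicorandil share of 0.0169%, 1.15 reads would be expected in the untreated group, where 1 was found. The ratio of pooled shares was 1.15 with an exact conditional interval of 0.147 to 51.6, so these data do not bear on a difference in miR-155-5p. miR-223-3p, a myeloid miRNA 2 ranks higher, had 7 nicorandil and 1 untreated reads as well.

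**Figure D4:**
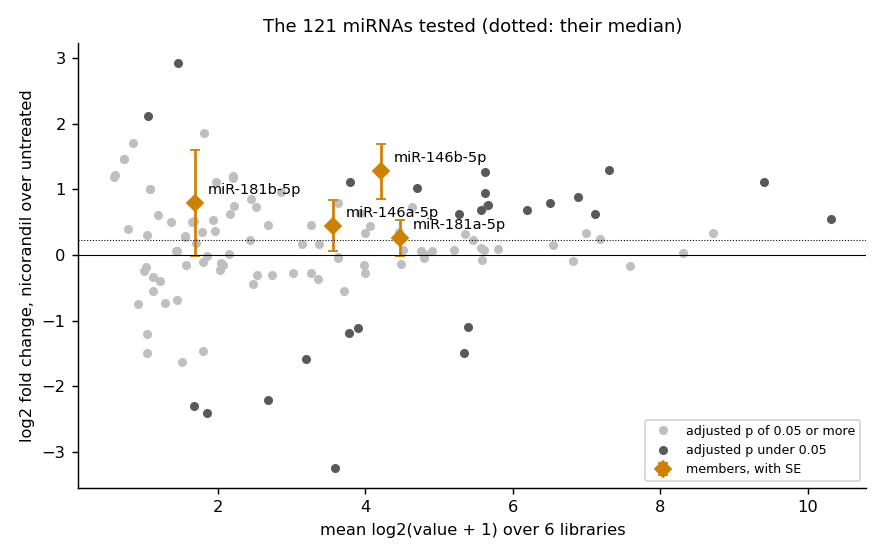
Log2 fold change of nicorandil over untreated against mean log2(value + 1) for the 121 miRNAs tested; dark dots have a limma adjusted p under 0.05, diamonds are the 4 tested members with their SE, and the dotted line is the median of all. miR-146b-5p lies at 1.28, above the other members at 0.80, 0.45 and 0.26 and above the median of 0.23.

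The opposite arms of these hairpins were nearly absent. The table lists 9 of them, and 1 had a read: miR-146b-3p, with 0, 2 and 2 reads in the nicorandil libraries and 0 in each untreated one. At its nicorandil share, 0.655 reads would be expected in the untreated group, so its lack there is within the counting error. miR-146b-5p had 183 reads in those libraries, beside 4 of its opposite arm.

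The libraries' pattern of miR-146b-5p was most like that of miR-1298 (Pearson r = 0.99), miR-106b-3p (0.93) and miR-103-3p (0.90), over log2 values of the 6 libraries. miR-106b-3p and miR-103-3p rest on 1 and 3 untreated reads. The pattern of miR-181a-5p was most like those of miR-125b-5p (0.97), miR-27b-3p (0.90) and miR-22-3p (0.87). All points share the same 6 libraries and the gap in depth between the groups, and these are descriptions. Next to miR-146b-5p in abundance stood miR-192-5p, a liver and gut miRNA, at 0.147% ± 0.0236 of nicorandil and 0.456% ± 0.126 of untreated reads, where miR-146b-5p was at 0.480% ± 0.194 and 0.262% ± 0.193 (SD, n = 3 each).

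Other miRNAs known to act on Toll-like receptor, NF-κB or macrophage signalling set the members in context. Of 30 listed, 23 had a read and 18 were tested, of which 5 were called higher and 2 lower, with a median log2 fold change of 0.63 beside 0.23 over all miRNAs tested; 21.5% of all miRNAs tested were called in either direction. The higher ones were miR-21-5p, miR-27a-3p, miR-125a-5p, miR-100-5p and miR-145-5p, and the lower ones were miR-10a-5p, which restrains NF-κB in endothelium, and miR-126a-3p, an endothelial miRNA. The list's most abundant members had 1106 nicorandil and 163 untreated reads (miR-21-5p), 620 and 128 (let-7c-5p) and 500 and 45 (miR-125a-5p), each more than the reads of miR-146b-5p. Over all miRNAs tested, 17 were called higher on the deposited values and 4 with library totals, so such calls can depend on the scale. As a sum this list took 9.64% to 10.4% of nicorandil and 9.45% to 10.6% of untreated libraries. Several of its inflammatory regulators had no read in any library, among them miR-9a-5p, miR-19a-3p, miR-19b-3p and miR-17-5p.

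miR-146a, miR-155 and miR-181 are abundant in blood and immune cells, so markers of those cells stand beside them. Of 8 such markers, 6 had a read and 3 were tested, and 1, the red-cell miRNA miR-486, was lower. Over all miRNAs tested, 7.44% were called lower. Their summed share was 0.263% to 0.415% of nicorandil libraries and 0.678% to 0.854% of untreated ones. Most of those reads came from miR-486 (53 nicorandil and 29 untreated reads) and miR-451-5p (50 and 15). Few came from miR-142-3p, miR-142-5p and miR-223-3p, so the sum is not a measure of leukocytes. miR-150-5p and miR-144-5p had no read, and the leukocyte marker miR-142-3p had 0 nicorandil reads and 1 untreated read. The other tested markers were not called: miR-142-5p, the other arm of that leukocyte hairpin, had 23 nicorandil and 5 untreated reads and a log2 fold change of 0.36, and miR-451-5p was at -0.27 (limma adjusted p = 0.86 and 0.835). Liver and gut markers took 0.463% to 0.617% of nicorandil and 1.44% to 2.61% of untreated reads. All 3 tested were lower, beside the 7.44% of all miRNAs tested. Endothelial markers took 0.0301% to 0.0356% of nicorandil and 0.181% to 0.360% of untreated reads. The 1 tested, miR-126a-3p, was lower and is also in the list of other immune regulators. Epithelial markers, on few reads, took 0.0237% to 0.0301% of nicorandil and 0.181% to 0.385% of untreated reads. Of the 2 tested, 1 was lower. Mesenchymal markers, 11 of 11 with reads, took 26.2% to 31.3% of nicorandil and 27.3% to 28.0% of untreated reads. Of the 10 tested, 4 were higher and 0 lower, where 14.0% of all miRNAs tested were called higher and 7.44% lower. Their median log2 fold change was 0.68 beside 0.23 over all miRNAs tested. Apart from miR-143-3p, each of these higher ones had already been counted as higher in the list of other immune regulators above. Both arms of miR-199a, miR-222-3p and miR-221-3p were tested in both lists as well. The calls and medians of the lists thus rest partly on the same values and are not separate results. The part of any of these shares in the members' values was not tested, and fewer vesicles of a cell type and less of a miRNA per vesicle cannot be told apart in such libraries.

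**Figure D5:**
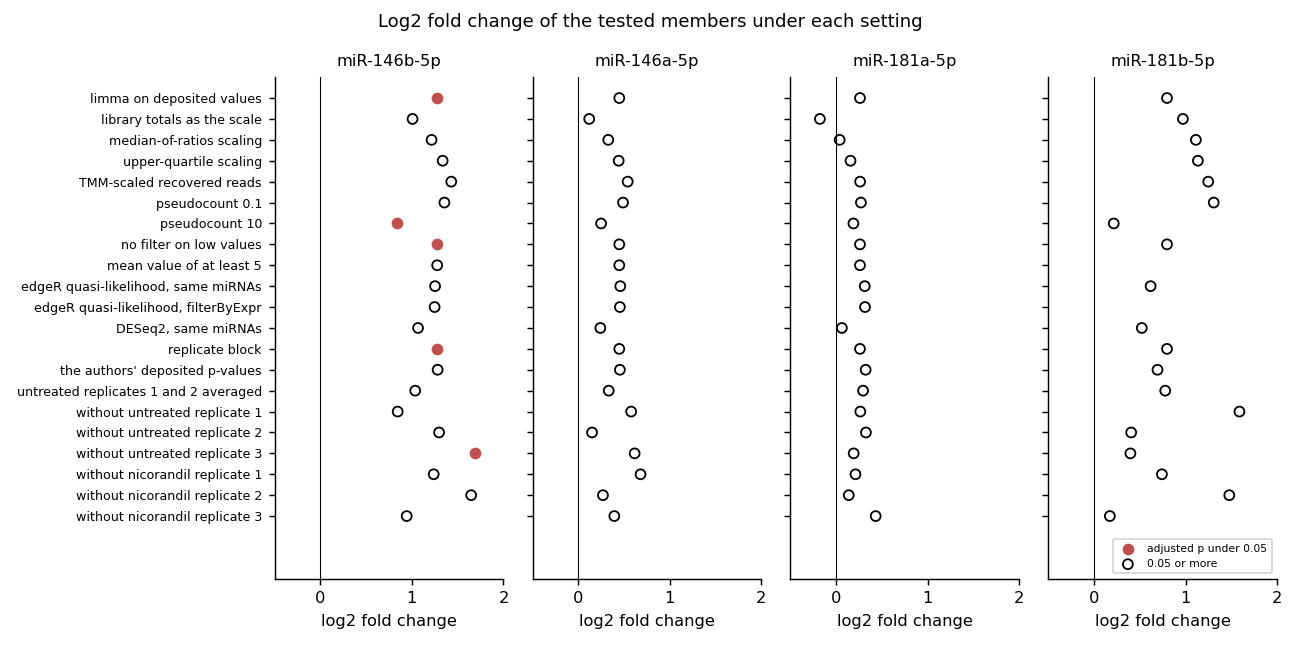
Log2 fold change of nicorandil over untreated for the 4 tested members under limma on the deposited values (top) and 20 other settings; filled dots have an adjusted p under 0.05. miR-146b-5p is positive throughout, from 0.84 to 1.69, and filled in the top row and 4 others; no other member is filled in any setting, and miR-181a-5p falls below 0 with library totals, at -0.18.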

How the data were processed

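Small RNA of 6 exosome libraries was sequenced single-end, and FastQC, Bowtie and edgeR were used, per the submitters' processing notes. No source used here gives tool versions, the genome build or the annotation. The authors deposited 1 normalized read-count signal per miRNA and library, together with their own log2 fold changes and unadjusted p-values, per the file headers. The signal has the form of edgeR pseudo-counts, in which each library's reads are adjusted by quantiles to 1 common library size. That adjustment uses the mean of the library's own group, so it can draw the libraries of a group together. The limma p-values on the deposited values may therefore understate the spread within groups. A placeholder near 0 stands for a group without reads and is treated as 0.

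Fitting 6 library scales and 1 dispersion (0.0272) to the values gave whole reads that reproduced 763 of 763 miRNAs (100%) to within 1e-06 units. The largest difference was 4.7e-07. The fitted scales equalled TMM scales of the recovered reads.

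limma 3.58.1 (R 4.3.3) with an intensity trend was run on log2(value + 1), two-sided and without covariates. It covered the 121 miRNAs that averaged 1 or more, and p-values were adjusted over all of them by Benjamini-Hochberg with a threshold of 0.05. The pseudocount understates the change of low miRNAs. A count of 0 was taken to allow 3 reads. With 3 against 3 libraries an exact permutation test cannot go below 0.1, so none was used.

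The other settings were other scalings, filters, pseudocounts, edgeR 4.0.16 quasi-likelihood and DESeq2 1.42.0 on the recovered reads, a replicate block, and leaving out each library. TMM-scaled reads, the authors' p-values and averaging untreated replicates 1 and 2 were added after seeing the data. The named miRNAs were the members, their other arms, 30 other immune regulators, the 3 miRNAs most alike in pattern, and neighbours in rank. miR-143-3p and the marker miRNAs serve for scale. Members and lists were chosen with earlier results of these data known.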

Additional observations from a re-analysis of the deposited data

How the results depend on the processing

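Against 17 higher and 9 lower miRNAs, there were 4 higher with library totals as the scale, 6 with median-of-ratios scaling, 7 with upper-quartile scaling and 5 with DESeq2, and 8 higher and 4 lower with the authors' deposited p-values adjusted over the table. Leaving out 1 library gave 6 to 13 higher and 5 to 8 lower, with 6 and 5 without nicorandil replicate 2 and 5 lower without untreated replicate 2. The median log2 fold change over all miRNAs tested moved by -0.35 with library totals and by -0.28 with DESeq2. Relative to that median, miR-146b-5p lay at 1.12 in each.

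The log2 fold change of miR-146b-5p was 1.01 with library totals, 1.22 with median-of-ratios scaling, 1.34 with upper-quartile scaling (limma adjusted p = 0.0545), 1.43 with TMM-scaled reads, 1.36 with a pseudocount of 0.1, 1.28 with a minimum mean of 5 (limma adjusted p = 0.0525), 1.25 in edgeR's quasi-likelihood test on the same miRNAs and also after filterByExpr, 1.07 in DESeq2, 1.28 in the authors' table and 1.04 with untreated replicates 1 and 2 averaged, and none of these was called. Without 1 library it ranged from 0.84 to 1.69 and was called only without untreated replicate 3 (limma adjusted p = 0.0126). It was also called with a pseudocount of 10 and with no filter. In the fits of the other members no call was made in any setting. Leaving out 1 library moved the uncalled log2 fold change of miR-181b-5p between 0.17 and 1.59 and that of miR-146a-5p between 0.15 and 0.68. Ratios of mean shares moved by less than 1 propagated SD in every alternative run, but these SDs are wide. The ratio of miR-146b-5p, 1.83 with a propagated SD of 1.54, was 3.04 without untreated replicate 3 and 1.38 without untreated replicate 1. That of miR-181b-5p was 0.706 to 1.59, with no value without untreated replicate 1, which held all its untreated reads. The paralogue splits were rerun only by leaving out 1 library. That moves a mean of 3 by less than 1 SD whatever the values, so this check could not fail. The same holds for a ratio when a nicorandil library is left out. The miR-146b-5p part of its family ran from 64.3% to 75.3% in nicorandil and from 44.9% to 68.1% in untreated libraries.

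No pairing by replicate number was seen: deviations of same-numbered libraries correlated at 0.0088, 0.044 and -0.030 over 121 miRNAs. Those of differently numbered libraries correlated at -0.12 to 0.099. Counting noise at the untreated depth could hide a pairing, so this check cannot exclude one. With the replicate block the counts were 17 and 9 and miR-146b-5p kept its call (limma adjusted p = 0.00956). Depth limits every untreated value, which rests on at most 11 reads of a member in a library. The cause of the lost calls was not tested.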
